A study of Mus musculus with 15 samples.

Results

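Elastic fibres are built from a small set of secreted proteins, and 9 of their genes were followed here across cells sorted from white adipose tissue (WAT) and lung of the mouse. The 9 genes, Fbn1, Eln, Fbln1, Fbln2, Fbln5, Efemp1, Mfap4, Mfap5 and Ltbp4, were chosen by name as the fibulins, the fibrillin and their partners in elastic fibres. All 9 were found among the 10222 gene symbols of the deposited table, whose values are RPKM, a read count scaled to transcript length and to the mapped reads of the library. Transcripts of the same symbol were added together, and because RPKM is divided by length, levels can be set side by side between genes.

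The cells came from heterozygous Il33-citrine reporter mice on the C57BL/6 background, so every population, endothelial and epithelial cells included, carried the reporter allele, and no treatment was part of the design. Mesenchymal stromal cells (MSCs) of the mesenteric fat were sorted as cells positive for PDGFRα, Sca1, CD34 and Podoplanin and negative for lineage markers, CD24, CD31, CD45 and Epcam, and were split by the reporter into Il33+ and Il33- WAT-MSC. Il33+ MSC of the lung, CD31+ endothelial cells of WAT and Epcam+ epithelial cells of the lung made up the other populations. Each of the 5 populations had 3 libraries from independent experiments, 15 in all. Age, sex and the number of pooled animals were not given in the sources used here, nor was a lung-specific gate for the MSC.

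An elastic fibre has a core of cross-linked elastin, encoded by Eln, laid on a scaffold of microfibrils. The microfibril is a polymer of fibrillin, encoded by Fbn1, to which the microfibril-associated glycoproteins (Mfap5, also called MAGP-2) and Mfap4 bind. Fibulins are calcium-binding adaptor proteins: fibulin-5 (Fbln5) bridges elastin to the microfibril and is needed for elastic fibres to form, fibulin-3 (Efemp1) contributes in fascia and other connective tissue, and fibulin-1 (Fbln1) and fibulin-2 (Fbln2) are found in elastic fibres and in basement membranes. Ltbp4, a latent TGF-beta-binding protein, guides fibulin-5 and elastin onto microfibrils and holds TGF-beta in a latent form. Fibroblasts and smooth muscle cells are the usual makers of these proteins, and elastic fibres give the lung its recoil.

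Fbln2 and Ltbp4 were each listed as a pair of RefSeq transcripts, and the other 7 genes as 1 transcript each. The Fbln2 transcripts differ by exon 9 of 18, which NM_007992 holds and NM_001081437 lacks. This exon is shown because it is the only coding stretch that separates the Fbln2 forms measured here. It lies at chr6:91259630-91259770 on the plus strand of GRCm38 (mm10, the build named in the submitters' processing notes), is coding over its 141 bases, or 47 codons, and in the GENCODE transcript reads as follows, with its 6 in-frame cysteine codons in capitals, the cysteine count of an EGF-like module.
Fbln2 exon 9: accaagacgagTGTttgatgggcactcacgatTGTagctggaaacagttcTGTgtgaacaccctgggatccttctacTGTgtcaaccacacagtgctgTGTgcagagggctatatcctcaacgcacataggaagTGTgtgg

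The transcript with exon 9 carried 32.1% ± 5.62 (SD, n = 3) of the Fbln2 RPKM in Il33+ WAT-MSC, 35.2% ± 2.18 in Il33- WAT-MSC and 31.9% ± 6.01 in lung Il33+ MSC. In the lung epithelial libraries the share was 16.8% ± 0.271, below every stromal library, but it rests on a summed level under 1 RPKM. The endothelial libraries gave 16.8%, 30.8% and 30.9%, so 1 of them sat at the epithelial share and 2 among the stromal libraries. How reads were divided between transcripts is not given in the sources used here, and these shares are estimates of that step. For Ltbp4 the share of NM_175641, the form with 33 exons that starts upstream of the 30-exon form NM_001113549, ran from 11.7% to 13.4% over all 15 libraries. In the lung epithelial libraries this share rests on 0.28, 1.03 and 1.11 RPKM of NM_175641. The part of the read division in this narrow range was not tested.

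Promoter windows are shown for Fbln1, Fbln5 and the short form of Ltbp4. These are the 3 members whose results below turn on a difference between stromal populations or on a transcript start. Their window also met no annotated exon of the same gene, and exons of other genes were not checked. Each is the 250 bases before a RefSeq start (GRCm38.p6), 5′ to 3′ on the gene's strand. Capitals mark matches, on either strand, to 6 motifs: the GC box (GGGCGG), the CCAAT box (CCAAT), the core of the TATA box (TATAAA), the site of the AP-1 factors (TGANTCA), the E-box (CACGTG) and the element bound by Smad proteins (CAGAC). Overlapping matches were each counted, and no motif of the set contains another.
Fbln1, chr15:85205699-85205948, plus strand: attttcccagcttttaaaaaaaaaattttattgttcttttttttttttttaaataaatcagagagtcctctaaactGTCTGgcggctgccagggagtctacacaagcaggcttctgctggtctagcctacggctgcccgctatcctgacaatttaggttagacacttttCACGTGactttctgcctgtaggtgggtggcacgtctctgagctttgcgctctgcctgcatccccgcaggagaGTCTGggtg
Fbln5, chr12:101819120-101819369, minus strand: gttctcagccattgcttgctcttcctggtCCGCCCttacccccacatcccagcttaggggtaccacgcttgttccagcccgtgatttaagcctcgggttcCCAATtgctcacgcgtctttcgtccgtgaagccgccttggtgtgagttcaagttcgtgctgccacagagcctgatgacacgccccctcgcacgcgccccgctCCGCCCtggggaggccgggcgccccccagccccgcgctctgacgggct
Ltbp4 short form, chr7:27333664-27333913, minus strand: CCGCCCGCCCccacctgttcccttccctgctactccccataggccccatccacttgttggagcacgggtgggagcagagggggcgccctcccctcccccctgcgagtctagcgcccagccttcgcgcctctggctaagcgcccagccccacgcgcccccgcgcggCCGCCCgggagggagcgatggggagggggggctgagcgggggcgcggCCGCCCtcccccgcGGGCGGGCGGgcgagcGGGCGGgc

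The Fbln1 window was 46.4% G + C and held 1 E-box and 2 CAGAC matches, the Fbln5 window was 65.2% G + C with 2 GC boxes and 1 CCAAT, and the Ltbp4 window was 79.2% G + C with 7 GC boxes and none of the other motifs. Of 32851 promoter windows of the same length, 32.7% held a GC box, 33.9% CCAAT, 12.4% TATAAA, 6.75% the AP-1 site, 6.02% the E-box and 42.2% CAGAC, so every motif matched here is found in many other promoters. The matches describe the letters only. Eln, Mfap4 and Mfap5 had no entry in the promoter table.

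Alignments ranged from 42711843 to 60773158 per library. The counts behind the values were not used, so no counting interval is given, and p-values below measure only the spread between these libraries. Il33, the reporter gene, was listed at 38.71, 78.48 and 41.85 RPKM in the Il33+ and at 6.76, 4.31 and 4.49 RPKM in the Il33- fraction of WAT-MSC, in the direction of the labels. All 10 stromal markers checked (Pdgfra, Pdgfrb, Col1a1, Col1a2, Col3a1, Dcn, Lum, Thy1, Ly6a and Cd34) were present in the 3 stromal populations, with sums of 4613 to 9702 RPKM per library, and the 8 epithelial markers marked the epithelial libraries. The endothelial libraries held their own markers (10 of 10, summing to 680 to 836 RPKM, against 13.96 to 80.2 in stromal libraries) but also all 10 stromal markers, at 2042, 2333 and 4358 RPKM, and 8 of 9 smooth muscle and pericyte markers, at 281, 277 and 200 RPKM, against 5.63 to 23.8 RPKM in stromal libraries. They also held all 7 mesothelial markers (Msln, Upk3b, Lrrn4 and others), summing to 56.6, 188 and 217 RPKM, and macrophage markers, at 8.80, 139 and 51.5 RPKM. These libraries thus go against a purely endothelial label, and each endothelial result below is given with that in view. The lung epithelial libraries also held macrophage markers, of which 6 of 7 were in the table, summing to 717 to 1379 RPKM. Most of this sum was Lyz2 alone, at 658.02, 1059.35 and 1301.32 RPKM in replicates 1 to 3. Chil3 was 41.02 to 48.08 RPKM, Cd68 6.86 to 15.54 RPKM and Ear1 7.92 to 11.18 RPKM. Csf1r was 1.94 to 3.34 RPKM and Marco 0.32 to 3.27 RPKM. The part of macrophages in this sum was not tested.

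The fibrillin gene Fbn1 was among the more abundant transcripts of the WAT stroma. It lies at chr2:125300594-125506485 on the minus strand (RefSeq, GRCm38.p6, as for the loci that follow) and its listed transcript has 66 exons. Its levels were 295, 268 and 251 RPKM in the Il33+ fraction of WAT-MSC, 196, 195 and 205 RPKM in the Il33- fraction and 175, 180 and 173 RPKM in lung Il33+ MSC. It was 82.4, 120 and 146 RPKM in WAT endothelial libraries and 8.51, 5.01 and 6.67 RPKM in lung epithelial libraries. No 2 neighbours in this order of populations overlapped, and Fbn1 was the only member for which that held. By its mean of 271 RPKM it ranked 72 of 10222 genes in Il33+ WAT-MSC.

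Eln, the gene of the elastic core itself, lies at chr5:134702595-134747368 on the minus strand, with 37 exons, and by its mean was lowest among the stromal populations in Il33+ WAT-MSC. Il33+ WAT-MSC gave 49.8, 29.1 and 70.4 RPKM, and the Il33- fraction 61.7, 61.7 and 85.4 RPKM. Lung Il33+ MSC gave 103.1, 106.6 and 248.1 RPKM, with replicate 3 far above the other two, and all 3 exceeded every WAT stromal library. The endothelial libraries, at 48.1, 43.3 and 84.6 RPKM, overlapped both WAT stromal populations, and the epithelial libraries stood at 5.92, 7.26 and 17.8 RPKM.

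Mfap4, a fibrinogen-domain protein that binds elastin and fibrillin, had the highest level of any member. Its gene lies at chr11:61485431-61488708 on the plus strand and has 6 exons. In lung Il33+ MSC it reached 1033, 1020 and 1496 RPKM, a mean that ranked 18 of 10222 genes. Il33+ WAT-MSC gave 144, 163 and 292 RPKM, and Il33- WAT-MSC 65.7, 78.5 and 92.2 RPKM. The endothelial libraries scattered from 59.5 to 255 RPKM (150, 59.5 and 255), and the epithelial libraries, at 66.5, 59.2 and 85.2 RPKM, overlapped the Il33- WAT-MSC. Mfap4 was the one member whose epithelial libraries overlapped a stromal population.

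Mfap5 (chr6:122513584-122529290, plus strand, 10 exons) had similar levels in Il33+ MSC of both tissues. It was 147, 166 and 159 RPKM in the Il33+ fraction of WAT-MSC, 74.8, 94.9 and 118 RPKM in the Il33- fraction and 125, 167 and 217 RPKM in lung Il33+ MSC. The lung libraries overlapped those of Il33+ WAT-MSC and stood above every Il33- library, and Il33+ and Il33- WAT-MSC were apart. Endothelial libraries gave 29.2, 59.0 and 105 RPKM and epithelial libraries 3.66, 10.1 and 9.54 RPKM.

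Among the fibulins, Fbln1 separated the WAT stromal populations most. The gene lies at chr15:85205949-85286294 on the plus strand, with 17 exons in the listed transcript. It was 237, 97.2 and 231 RPKM in Il33+ WAT-MSC, with replicate 2 less abundant than the others, and 36.5, 56.3 and 64.0 RPKM in the Il33- fraction. Lung Il33+ MSC gave 225, 221 and 188 RPKM, within the range of Il33+ WAT-MSC. The endothelial values of 54.8, 62.2 and 122 RPKM overlapped both WAT populations, and the epithelial values were 4.89, 4.05 and 5.54 RPKM.

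Fbln2, at chr6:91212460-91272540 on the plus strand, had a different order. Il33- WAT-MSC gave 115, 126 and 168 RPKM and Il33+ WAT-MSC 132, 110 and 135 RPKM, which overlapped. Lung Il33+ MSC gave 67.6, 66.8 and 69.0 RPKM, below all 6 WAT stromal libraries. Endothelial libraries spread from 38.3 to 162 RPKM (38.3, 86.5 and 162), and epithelial libraries were at 0.97, 0.47 and 0.83 RPKM, the lowest mean of any member in any population.

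Fbln5, an 11-exon gene at chr12:101746565-101819119 on the minus strand, was the least abundant member in every stromal population. It was 34.9, 38.1 and 34.2 RPKM in the Il33+ fraction of WAT-MSC, 16.8, 21.4 and 24.3 RPKM in the Il33- fraction and 14.6, 12.02 and 14.6 RPKM in lung Il33+ MSC, with no overlap between these 3. Endothelial libraries gave 31.3, 16.1 and 23.9 RPKM, with replicate 1 here the highest, and epithelial libraries 0.86, 1.07 and 0.86 RPKM.

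Efemp1 lies at chr11:28853154-28926743 on the plus strand, with 11 exons. It was 188, 316 and 257 RPKM in the Il33+ fraction of WAT-MSC, 123, 181 and 197 RPKM in the Il33- fraction and 110, 127 and 142 RPKM in lung Il33+ MSC. Its endothelial values, 116, 132 and 145 RPKM, overlapped the lung MSC and the Il33- WAT-MSC. In the epithelial libraries it was 32.4, 24.4 and 34.2 RPKM, the second highest member there after Mfap4.

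Ltbp4 (chr7:27305140-27339720, minus strand) was 163, 79.0 and 162 RPKM in Il33+ WAT-MSC, and the Il33- fraction gave 93.5, 148 and 146 RPKM, with replicate 2 low in the first and replicate 1 low in the second. Lung Il33+ MSC gave 202, 256 and 237 RPKM, above all WAT stromal libraries. Endothelial libraries gave 48.8, 114 and 172 RPKM and epithelial libraries 2.20, 8.02 and 8.63 RPKM.

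**Figure D1:**
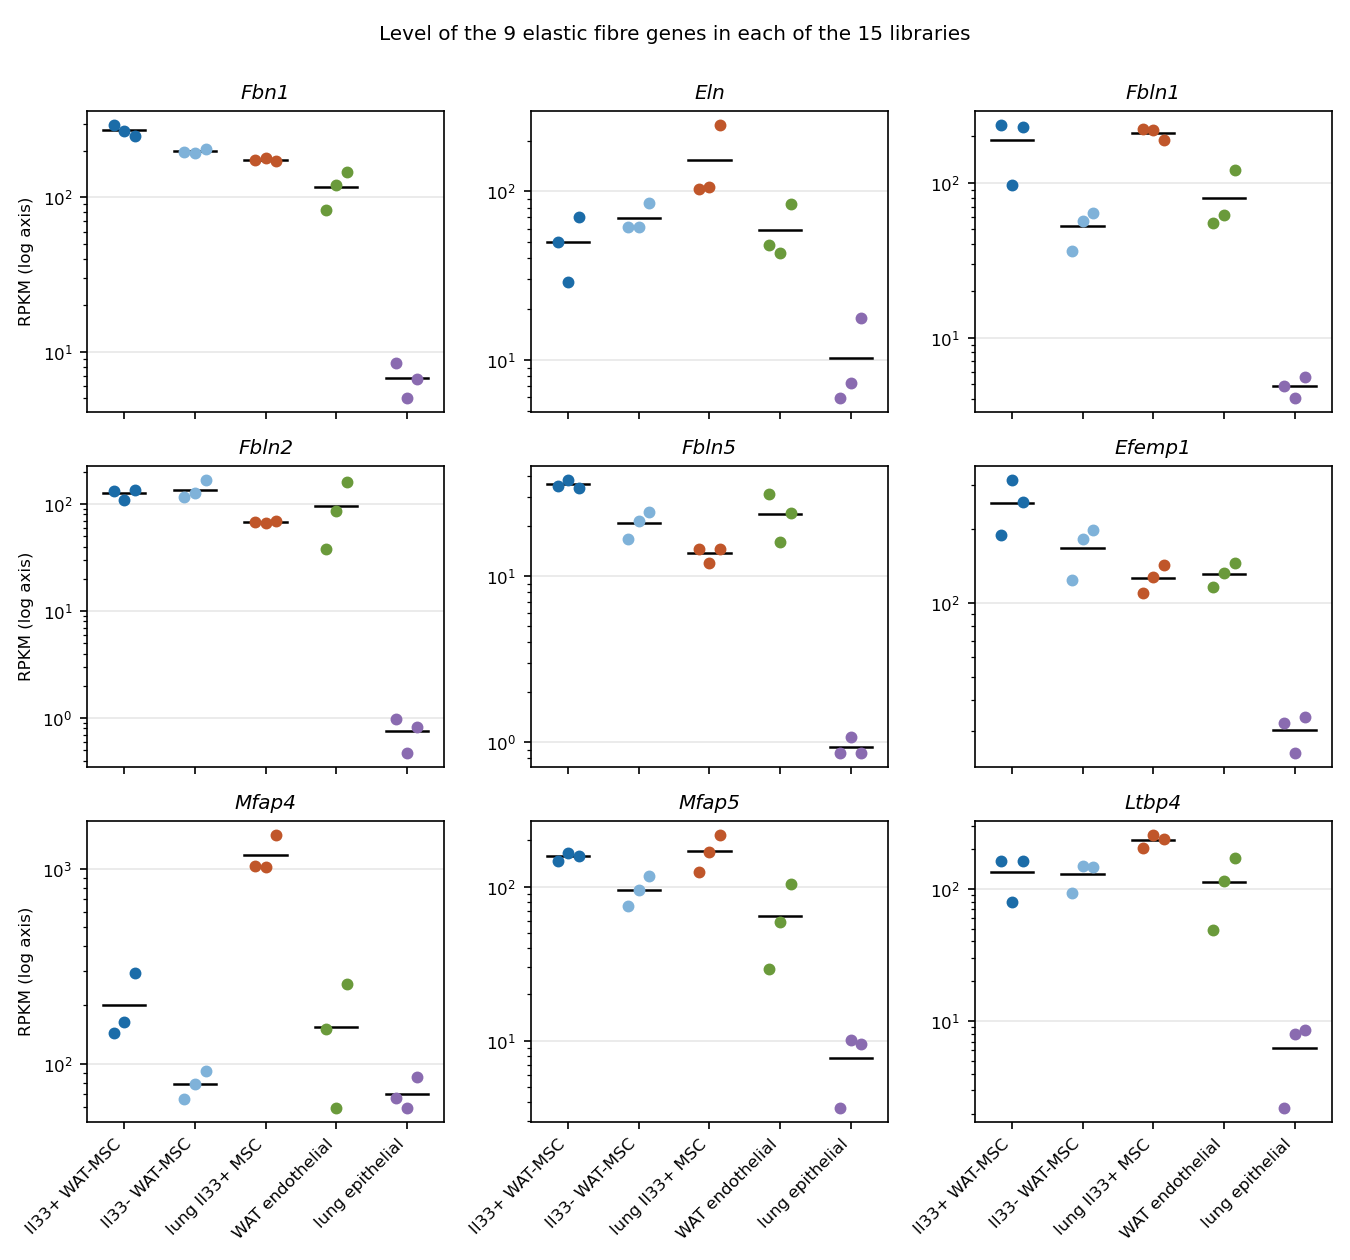
Level of each of the 9 genes (RPKM, log axis) in the 15 libraries; points are libraries in the order of replicates 1 to 3 and horizontal bars are means of 3. Lung epithelial cells had the lowest mean of every gene, and the 3 lung Il33+ MSC libraries had the highest Mfap4, from 1020 to 1496 RPKM.

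The 9 genes together summed to 1417 ± 164 RPKM (SD, n = 3) in Il33+ WAT-MSC, 949 ± 159 in Il33- WAT-MSC, 2332 ± 395 in lung Il33+ MSC, 836 ± 332 in WAT endothelial and 138 ± 27.0 in lung epithelial cells. The make-up of that sum does not depend on the scaling of a library. Mfap4 was 50.4% ± 3.20 of it in lung Il33+ MSC, against 13.9% ± 4.08 in Il33+ and 8.31% ± 0.135 in Il33- WAT-MSC. In both WAT-MSC populations Fbn1 and Efemp1 led instead, with 19.4% ± 3.14 and 18.2% ± 5.97 in Il33+ and 21.3% ± 3.32 and 17.5% ± 1.57 in Il33- WAT-MSC. Fbln1 took 13.1% ± 4.86 in Il33+ and 5.44% ± 0.678 in Il33- WAT-MSC, and Eln 3.43% ± 1.07 and 7.35% ± 0.817, with no overlap of libraries for either gene.

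The lung epithelial libraries held much less of the 9 transcripts but a make-up close to that of lung MSC for Mfap4, at 50.9% ± 1.70. Efemp1 was 22.1% ± 3.15 there and 5.44% ± 0.405 in lung MSC. Fbln1 went the other way, from 9.32% ± 2.24 in lung MSC to 3.51% ± 0.324 in epithelial libraries, and Fbln2 from 2.96% ± 0.425 to 0.551% ± 0.196.

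**Figure D2:**
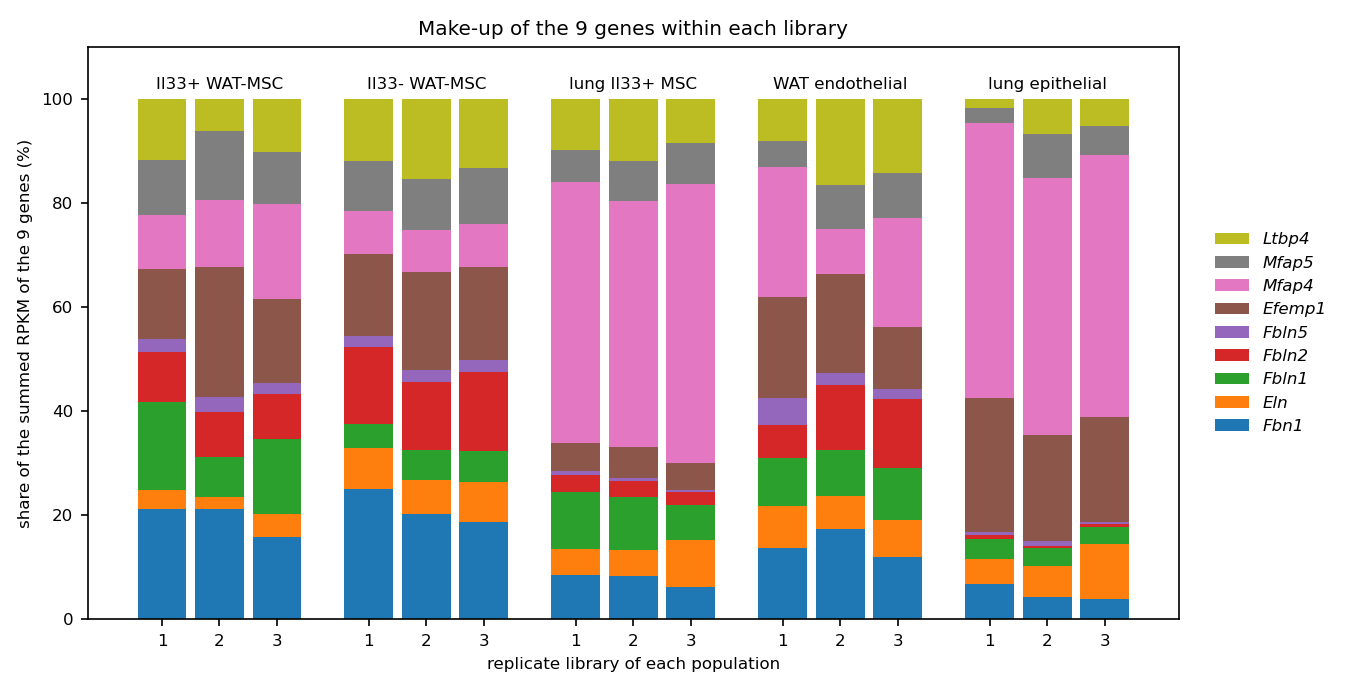
Share of each gene in the summed RPKM of the 9 genes (%), 1 stacked bar per library, grouped by population. Mfap4 takes 47.3% to 53.7% of the bar in lung Il33+ MSC and 8.15% to 18.3% in the 6 WAT-MSC libraries.

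Differences between populations were fitted with limma on log2(RPKM + 1) over all genes that reached 1 RPKM in 3 or more of the 6 libraries, with p adjusted over all genes tested by the Benjamini-Hochberg method and called below 0.05. All 9 members were tested in each of the 4 comparisons. The comparisons share libraries: Il33+ WAT-MSC enter 3 of them and lung Il33+ MSC enter 2, so they are not independent of each other. A fold change on this scale understates that of genes near 1 RPKM. In bulk libraries fewer expressing cells and less RNA per cell cannot be told apart.

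**Figure D3:**
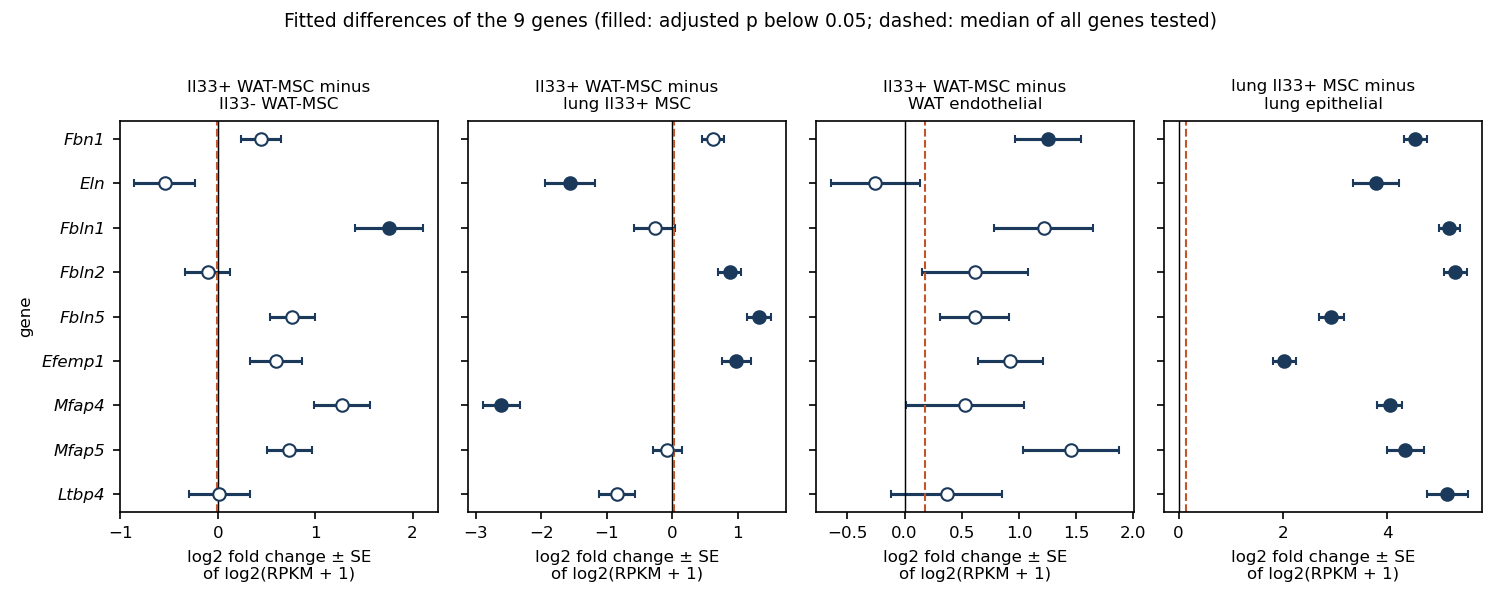
Fitted log2 fold change (± SE, 3 libraries a group) of the 9 genes in the 4 comparisons, on the log2(RPKM + 1) scale; filled points have an adjusted p below 0.05 in limma, and the dashed line is the median of all genes tested. Of the 9 genes, 1, 5, 1 and 9 are filled from left to right, and the axes differ in range between panels.

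Il33+ and Il33- WAT-MSC were compared to see how far the reporter divides stroma of one depot. Fbln1 was the only member that passed, higher in Il33+ WAT-MSC. Its level was 189 ± 79.3 RPKM (SD, n = 3) against 52.3 ± 14.2, a 3.61-fold ratio of means, and its log2 fold change was 1.76 (SE 0.35, limma adjusted p = 0.0324). Over all 8448 genes tested, 1.57% were called, and 0.923% were called higher in Il33+ WAT-MSC, beside 1 of the 9 members. The Fbln1 call was lost in 5 of the 6 fits without 1 library, with limma adjusted p from 0.0105 to 0.143, while its log2 fold change stayed between 1.53 and 2.18 in all of them. Without Il33+ replicate 2, the library with the low Fbln1, the log2 fold change was 2.18 (limma adjusted p = 0.0105). With no filter on low genes the call was also lost (limma adjusted p = 0.145).

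Sums of markers of other cell types differed between the reporter fractions. The 7 mesothelial markers summed to 39.3, 104 and 127 RPKM in the Il33+ fraction and 23.7, 36.9 and 21.5 RPKM in the Il33- fraction, without overlap, and 7 and 6 of them had a mean of at least 1 RPKM. Upk3b, a defining mesothelial gene, was 13.7 ± 6.83 RPKM in the Il33+ and 2.21 ± 1.92 RPKM in the Il33- fraction. It was listed at 0 in Il33- replicate 1. Msln, Upk1b, Lrrn4, Krt19 and Gpm6a also had the higher mean in the Il33+ fraction. Wt1, on the same list, went the other way by its mean, at 11.8 ± 2.88 RPKM in the Il33+ and 15.9 ± 6.80 RPKM in the Il33- fraction, with overlap. The summed macrophage markers, 6 of 7 in the table, went the other way. They were at 6.52 to 11.01 RPKM in the Il33+ and 17.0 to 37.1 RPKM in the Il33- fraction, with Ear1 at 0 in all Il33+ libraries. Taken singly, each of these 6 markers overlapped between the fractions. Cd68 was 32.0 RPKM in Il33- replicate 1, and Lyz2 was 26.2 RPKM in Il33- replicate 2. Over Il33+ replicates 1, 2 and 3, Fbln1 was 237, 97.2 and 231 RPKM. The mesothelial sum given above was lowest in replicate 1 and highest in replicate 3. The part of mesothelial and macrophage cells in the differences of Fbln1 and the other members was not tested.

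Mfap4 lay just outside the threshold, with 200 ± 80.4 against 78.8 ± 13.2 RPKM and a log2 fold change of 1.27 (SE 0.28, limma adjusted p = 0.0552). It passed under 5 of 15 alternatives: median-ratio scaling, quantile normalization, a minimum of 5 RPKM, the replicate block and the sequencing lane as a covariate (limma adjusted p = 0.0209 with the lane). It did not pass under the other 10, with limma adjusted p of 0.203 in 1 fit of all libraries, 0.156 with no filter and 0.0701 to 0.193 in the 6 fits without 1 library. The microfibril genes Fbn1 and Mfap5 and the elastin adaptor Fbln5 were each higher in every Il33+ library than in any Il33- library, with log2 fold changes of 0.44 (SE 0.21), 0.73 (SE 0.23) and 0.77 (SE 0.23) and limma adjusted p-values of 0.448, 0.195 and 0.173. With Fbln1 and Mfap4 this made 5 of 9 members that did not overlap and were higher in Il33+ WAT-MSC, beside 8.84% of all genes tested. No member was higher in every Il33- library.

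Efemp1, Fbln2, Eln and Ltbp4 overlapped between the reporter fractions. Their log2 fold changes were 0.60 (SE 0.27), -0.10 (SE 0.23), -0.55 (SE 0.31) and 0.015 (SE 0.31), with limma adjusted p-values of 0.426, 0.910, 0.552 and 0.993. The median log2 fold change of the 9 members was 0.60, beside -0.0064 for all genes tested. Within lane 1 alone and lane 2 alone, 8 of 9 members had the same sign, the exception being Ltbp4.

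Il33+ MSC of fat and lung shared the reporter status and differed in tissue of origin. Fbln5, Efemp1 and Fbln2 passed as higher in Il33+ WAT-MSC, and Mfap4 and Eln as higher in lung Il33+ MSC. Over all 8554 genes tested 6.00% were called, 2.50% higher in WAT-MSC and 3.50% higher in lung MSC. Mfap4 differed most, 5.92-fold higher in lung by means of 1183 ± 271 and 200 ± 80.4 RPKM, with a log2 fold change of -2.61 (SE 0.29, limma adjusted p = 0.000507). Its percentile among the log2 fold changes of all genes tested was 0.397. Eln was 3.07-fold higher in lung by means of 153 ± 82.7 and 49.8 ± 20.6 RPKM, with a log2 fold change of -1.56 (SE 0.38, limma adjusted p = 0.0386).

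On the WAT side, Fbln5 was 35.7 ± 2.07 RPKM against 13.7 ± 1.46 in lung, with a log2 fold change of 1.32 (SE 0.19, limma adjusted p = 0.00232). Efemp1 was 254 ± 63.8 against 126 ± 16.1 RPKM, with a log2 fold change of 0.98 (SE 0.22, limma adjusted p = 0.0275). Fbln2 was 126 ± 14.1 against 67.8 ± 1.09 RPKM, with a log2 fold change of 0.87 (SE 0.17, limma adjusted p = 0.0138). The fibulins did not all move together, since Fbln1 overlapped between tissues, with a log2 fold change of -0.27 (SE 0.32, limma adjusted p = 0.743), as did Mfap5 at -0.073 (SE 0.22, limma adjusted p = 0.918).

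Fbn1 and Ltbp4 did not overlap between the tissues but missed the threshold. Fbn1 was higher in every WAT library, with a log2 fold change of 0.62 (SE 0.17, limma adjusted p = 0.0674), and Ltbp4 in every lung library, at -0.85 (SE 0.28, limma adjusted p = 0.131). In all, 7 of 9 members did not overlap, 4 higher in WAT and 3 higher in lung, beside 23.1% of all genes tested. The median of the members was -0.073, beside 0.032 for all genes.

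The calls of Mfap4 and Fbln5 held under all 15 alternative settings, with log2 fold changes of -2.91 to -2.41 and 1.24 to 1.38. Eln was called under 5 of the 15, Fbln2 and Efemp1 under 10 each, and their directions held in all. Eln lost its call with the lane as a covariate, at a log2 fold change of -1.31 (limma adjusted p = 0.0713), and without lung replicate 3, its highest library, at -1.15 (limma adjusted p = 0.0942). In fits without 1 library the Eln call held only without Il33+ WAT-MSC replicate 3 (limma adjusted p = 0.0299) and was otherwise lost, with limma adjusted p from 0.0595 to 0.0950. The Fbln2 call was lost without Il33+ WAT-MSC replicate 1 or 3 or lung replicate 1 or 2 (limma adjusted p from 0.0551 to 0.0855), and that of Efemp1 without Il33+ WAT-MSC replicate 2 or 3 or lung replicate 1 or 2 (limma adjusted p from 0.0563 to 0.124). In 1 fit of all 15 libraries the Fbln2 call was also lost (limma adjusted p = 0.323), and with no filter that of Efemp1 (limma adjusted p = 0.0552). Lung Il33+ MSC had 2 libraries in lane 2 and WAT-MSC had 1. Sums of marker lists of other cells differed by tissue too. The mesothelial sum was 5.03 to 8.29 RPKM in lung MSC, with 2 of 7 markers at a mean of at least 1 RPKM, against 39.3 to 127 RPKM in Il33+ WAT-MSC. The sum of 8 epithelial markers was 181 to 544 RPKM in lung against 73.1 to 144 RPKM in WAT. It was highest in lung replicate 3 through Scgb1a1, at 72.9, 200 and 493 RPKM in lung replicates 1 to 3. Scgb1a1 was also most of the WAT sum, at 71.2, 78.3 and 134 RPKM in Il33+ WAT-MSC replicates 1 to 3. In the lung epithelial libraries Scgb1a1 was 160613 to 208003 RPKM. Sftpc, at 93.4, 28.0 and 40.1 RPKM, and Sftpb, Cldn18 and Cdh1 were highest in lung replicate 1. Krt8, Krt18 and Epcam were highest in lung replicate 3, each below 1 RPKM, and Krt8 and Krt18 had the lower mean in lung. Smooth muscle and pericyte markers, 8 of 9 in the table, summed to 7.80 to 12.1 RPKM in lung and 14.6 to 23.8 RPKM in WAT. Most of the WAT sum was Rgs5, with means of 11.9 RPKM in WAT and 0.503 RPKM in lung. Des, Cspg4 and Myh11 also had the higher mean in WAT, but Acta2, Tagln, Mcam and Notch3 had it in lung. Macrophage markers, 6 of 7 in the table, summed to 181.07 to 233.25 RPKM in lung MSC and 6.52 to 11.01 RPKM in Il33+ WAT-MSC. Each of them had the higher mean in lung. The sum of 10 endothelial markers was 49.01 to 80.18 RPKM in lung and 22.8 to 46.6 RPKM in WAT. Kdr, Cldn5, Esam and Emcn went the other way by their means. The part of mesothelial, epithelial, smooth muscle, pericyte, macrophage or endothelial cells in the member differences was not tested.

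Il33+ WAT-MSC were set against WAT endothelial cells to compare cell types within fat. Fbn1 alone passed, at 271 ± 22.3 against 116 ± 31.9 RPKM, with a log2 fold change of 1.25 (SE 0.29, limma adjusted p = 0.0489). The call held under 5 of 15 alternatives and was lost under 10, with limma adjusted p of 0.0767 with quantile normalization, 0.0607 with a pseudocount of 0.1, 0.0754 with no filter, 0.0545 with the most abundant transcript and 0.0568 with the replicate block, besides 5 fits without 1 library. Of all 8665 genes tested 3.90% were called, and 0.565% as higher in WAT-MSC. Mfap5 at 1.46 (SE 0.42, limma adjusted p = 0.116), Efemp1 at 0.92 (SE 0.28, limma adjusted p = 0.138) and Fbln5 at 0.61 (SE 0.30, limma adjusted p = 0.383) were higher in each WAT-MSC library, so that 4 of 9 members did not overlap, beside 23.2% of all genes. Fbln1, at 1.22 (SE 0.43, limma adjusted p = 0.207), overlapped by a single WAT-MSC library, replicate 2.

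Fbln2, Mfap4, Ltbp4 and Eln overlapped, with log2 fold changes of 0.61 (SE 0.46), 0.53 (SE 0.51), 0.37 (SE 0.48) and -0.26 (SE 0.39) and limma adjusted p-values of 0.572, 0.674, 0.769 and 0.802. The coefficient of variation over the endothelial libraries was 65.1% for Fbln2, 63.2% for Mfap4 and 55.2% for Ltbp4, against 11.2%, 40.2% and 35.8% in Il33+ WAT-MSC. For Eln it was 38.5% in endothelial and 41.4% in WAT-MSC libraries. The median of the members was 0.61, beside 0.18 for all genes tested. Median-ratio scaling moved the fold changes of all genes in this comparison by a median of -0.17.

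The stromal markers moved with the members over the endothelial libraries. Set against the Il33+ WAT-MSC mean, the median of the 9 members was 36.2%, 45.2% and 66.9% in endothelial replicates 1, 2 and 3, and the median of the 10 stromal markers 32.6%, 36.3% and 69.5%. Replicate 3 was the highest for 8 of the 9 members, all but Fbln5. Eln stood above this range at 96.6%, 87.0% and 170%, and in replicate 3 Fbln2, Mfap4 and Ltbp4 also exceeded the WAT-MSC mean, at 129%, 128% and 128%. Stromal markers in that library ran from 48.2% to 124%. The mesothelial sum was likewise lowest in replicate 1 and highest in replicate 3. Of its genes, Msln, Upk3b and Krt19 were highest in replicate 3, but Upk1b, Lrrn4, Wt1 and Gpm6a in replicate 2. The smooth muscle and pericyte sum, most of it Rgs5 (209, 215 and 141 RPKM), was lowest in replicate 3. Acta2 and Myh11 were also lowest there, but Tagln, Des, Cspg4, Mcam and Notch3 were not. The part of stromal, mesothelial, macrophage, smooth muscle or pericyte cells in these levels was not tested. Without endothelial replicate 3, Fbn1 (log2 fold change 1.43, limma adjusted p = 0.0238) and Mfap5 (1.90, limma adjusted p = 0.0186) both passed. Without any 1 of the other 5 libraries no member did, and the limma adjusted p of Fbn1 was then 0.0653 to 0.228. One limma fit of all 15 libraries called 4 members in this comparison, Fbn1, Fbln1, Efemp1 and Mfap5.

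**Figure D4:**
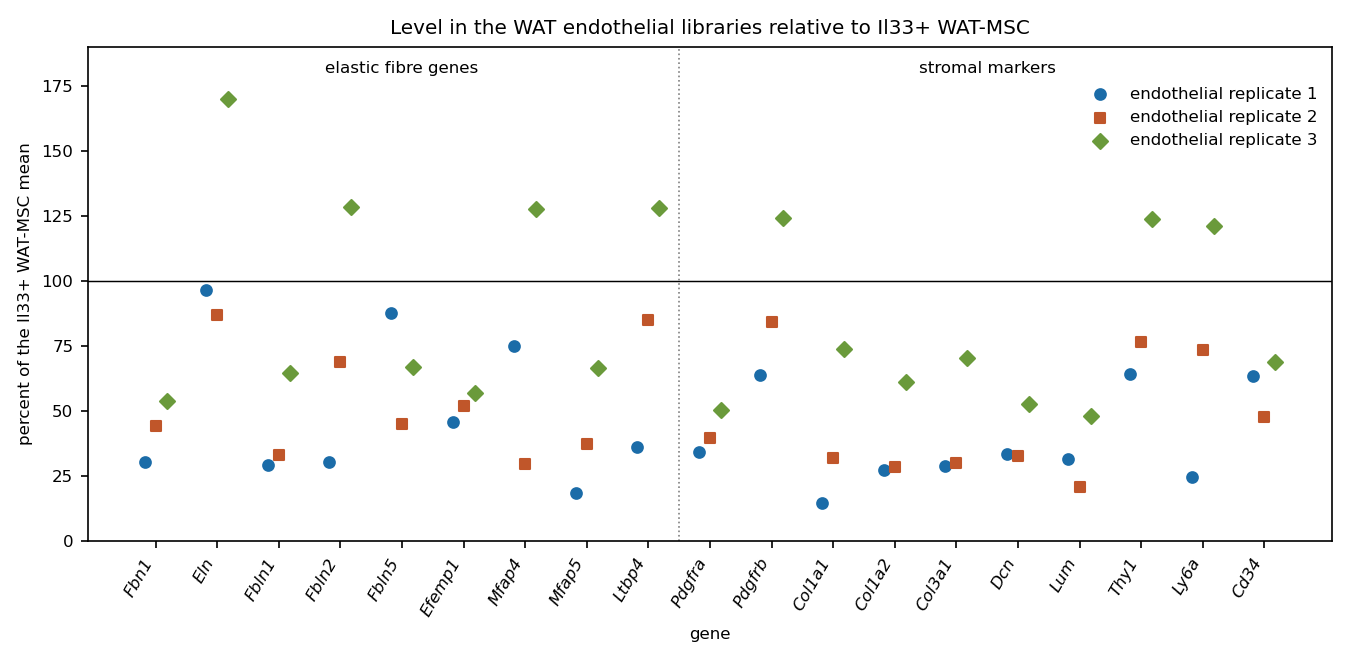
Level in each WAT endothelial library as a percentage of the Il33+ WAT-MSC mean (vertical axis) for the 9 genes and the 10 stromal markers; the 3 symbols are endothelial replicates and the line is at 100%. Replicate 3 is the highest for most genes of both kinds, and Eln reaches 170%.

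Lung Il33+ MSC and lung epithelial cells showed the largest contrast. All 9 members passed as higher in the MSC, and no libraries overlapped. Over all 9352 genes tested 43.0% were called, 24.4% as higher in MSC, and 31.2% did not overlap in that direction. Fbln2 had the largest log2 fold change, 5.30 (SE 0.22, limma adjusted p = 7.01e-07), with 67.8 ± 1.09 against 0.757 ± 0.258 RPKM, and Fbln1 followed with 5.19 (SE 0.20, limma adjusted p = 7.01e-07), with 211 ± 20.2 against 4.83 ± 0.747 RPKM. Ltbp4 had 5.15 (SE 0.39), Fbn1 4.54 (SE 0.22), Mfap5 4.35 (SE 0.36), Mfap4 4.05 (SE 0.25) and Eln 3.78 (SE 0.44), with limma adjusted p-values from 8.73e-07 to 0.000105.

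Fbln5 and Efemp1 differed least, at 2.93 (SE 0.24, limma adjusted p = 1.21e-05) and 2.03 (SE 0.21, limma adjusted p = 5.66e-05). For Fbln5 this scale understates the difference, since the epithelial level of 0.930 ± 0.121 RPKM is near the value of 1 added before the log, and the ratio of means was 14.7-fold. For Efemp1 it does not, and the ratio was 4.16-fold. As a share of the lung MSC mean, the epithelial libraries held 24.0% ± 4.13 of Efemp1 and between 1.12% and 6.78% of each of the other 8 members by their means. The 10 stromal markers were at 1.22% to 10.9%, so Efemp1 stood above every one of them. The part of other cell types in this level was not tested.

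The median of the members was 4.35, beside 0.13 for all genes, and all 9 calls held in all 15 alternatives. Median-ratio scaling moved the fold changes of all genes by a median of -0.19 and the share of calls that were higher in MSC from 56.9% to 48.3%. The smallest member difference under any setting was 1.40, for Efemp1.

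Genes that work beside the 9 were read from lists of elastic fibre assembly, cross-linking, breakdown, TGF-beta ligands and receptors. The receptor list joins integrin genes with Glb1, Neu1 and Ctsa, and its genes are called receptors below as a list name only. In the reporter comparison only Mmp3, a stromelysin that degrades matrix proteins, passed, at 21.1 ± 5.23 RPKM in the Il33+ and 1.76 ± 1.34 RPKM in the Il33- fraction, with a log2 fold change of 3.09 (SE 0.39, limma adjusted p = 0.00382). Over all genes tested, 0.923% were called higher in Il33+ WAT-MSC. None of the 17 assembly, 6 cross-linking, 3 TGF-beta ligand and 9 receptor genes tested passed in limma, and 3, 1, 0 and 0 of them had an unadjusted p below 0.05, beside 11.6% of all genes tested. The median log2 fold changes of these 5 lists ran from -0.35 for the ligands to 0.29 for breakdown genes.

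Between WAT and lung MSC, 3 of 19 assembly genes were higher in WAT and 2 in lung, beside 2.50% and 3.50% of all genes tested. Fn1 (fibronectin, on which fibrillin assembles) was 458 ± 18.7 against 229 ± 42.7 RPKM, with a log2 fold change of 1.01 (SE 0.20, limma adjusted p = 0.0120), and Fbln7, another fibulin, was 1.29 (SE 0.33, limma adjusted p = 0.0457). Hmcn1 (hemicentin-1, a large relative of the fibulins) was -1.63 (SE 0.31, limma adjusted p = 0.0109), and Adamts17, a secreted protease of the microfibril, was -1.40 (SE 0.33, limma adjusted p = 0.0295). Emilin2, named here after its value was seen, was the third that was higher in WAT, at 0.89 (SE 0.22, limma adjusted p = 0.0400). The list median was -0.22.

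Among the cross-linking enzymes, which join elastin and collagen chains, Loxl2 was higher in WAT at 1.11 (SE 0.17, limma adjusted p = 0.00352) and Loxl4 in lung at -1.32 (SE 0.26, limma adjusted p = 0.0125), while Lox, Loxl1, Loxl3 and Tgm2 did not pass. Of 9 breakdown genes and inhibitors 4 were higher in lung and none in WAT, beside 3.50% and 2.50% of all genes tested. Timp3, a matrix-bound inhibitor of metalloproteinases, was 1190 ± 159 against 185 ± 26.6 RPKM, with a log2 fold change of -2.68 (SE 0.20, limma adjusted p = 8.8e-05). Mmp3 was -2.34 (SE 0.22, limma adjusted p = 0.000202), Timp1 -1.63 (SE 0.39, limma adjusted p = 0.0351) and the elastolytic cathepsin Ctss -2.58 (SE 0.31, limma adjusted p = 0.000888). Ctss is also a macrophage gene, and macrophage markers summed to 181.1 to 233.3 RPKM in lung MSC and 6.52 to 11.01 RPKM in Il33+ WAT-MSC. Most of the lung sum was Lyz2, at 105.4 to 144.87 RPKM, a gene listed at 658.02 to 1301.32 RPKM in the lung epithelial libraries. The part of macrophages in the Ctss difference was not tested. Tgfb3, a ligand that latent binding proteins hold, was 60.1 ± 15.8 RPKM in lung and 18.5 ± 7.13 in WAT, at -1.69 (SE 0.30, limma adjusted p = 0.00763), and 0 of 9 receptors passed in limma, with 4 at an unadjusted p below 0.05, beside 17.4% of all genes tested, and 7 not overlapping between tissues, 4 higher in WAT and 3 in lung, beside 23.1% of all genes.

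Against endothelial cells, Vcan (versican) at 1.34 (SE 0.29, limma adjusted p = 0.0375), Mmp2 at 1.52 (SE 0.25, limma adjusted p = 0.0101) and Mmp14, the activator of Mmp2, at 1.21 (SE 0.24, limma adjusted p = 0.0299) were higher in WAT-MSC. Over all genes tested, 0.565% were called higher in WAT-MSC. The transglutaminase Tgm2 was higher in the endothelial libraries, at -1.48 (SE 0.30, limma adjusted p = 0.0283). None of the 3 TGF-beta ligands and 9 receptors passed in limma, and 1 of each list had an unadjusted p below 0.05, beside 15.4% of all genes tested. The medians were 0.89 for assembly, 0.83 for cross-linking, 1.12 for breakdown, 0.54 for ligands and 0.024 for receptors.

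Against lung epithelial cells most listed genes went with the members. Of those tested, 18 of 19 assembly genes, 6 of 6 cross-linking enzymes, 8 of 9 breakdown genes, 2 of 3 ligands and 6 of 9 receptors were higher in lung MSC and none was lower. Over all genes tested, 24.4% were called higher in lung MSC. The list medians were 2.60, 3.53, 4.26, 2.19 and 1.00. The proteoglycan Dcn (decorin) had the largest value of the assembly genes, 5.80 (SE 0.27, limma adjusted p = 8e-07), ahead of Vcan at 4.26, Fn1 at 4.19 and Bgn at 4.16. Of the cross-linkers Loxl1, which is needed for elastic fibre upkeep, was 4.11 (SE 0.27, limma adjusted p = 3.36e-06), beside Lox and Loxl2 at 4.01 each and Loxl4 at 3.05. Mmp3, Timp1, Mmp2 and Timp2 led the breakdown list, at 5.67, 5.11, 4.76 and 4.47. Tgfb3 and Tgfb2 were at 3.67 and 2.19. On the receptor list, Itga5, Itgb5, Glb1 and Ctsa were at 2.95, 2.35, 1.87 and 1.07. Fbn2, Ltbp2, Emilin3, Mmp7, Mmp9, Mmp12, Elane, Itga8, Itgb6 and Itgb8 were on the lists but were absent from the gene symbols of the deposited table.

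Likeness of pattern was measured by Pearson's r over the 15 libraries among 9981 genes that reached 1 RPKM in at least 3 libraries. The points share 5 populations and a common deep gap between stroma and epithelium, so r is high for many stromal genes and is given as a description. The genes most like the mean of the 9 members were Col14a1, Islr, Pcolce, Fkbp9, Sparc, Serpinf1, Fndc1, Slc43a3, Scara5 and Col3a1, with r from 0.986 to 0.992. Fbn1 was most like Dpt (0.994), Fstl1 and Axl, Fbln2 most like Tgfbr3 (0.989), Penk and Lhfpl2, and Ltbp4 most like Adamtsl5 (0.990), Zfp521 and Ntn1. Fbln1 was nearest to Tgfbi (0.987), Cygb and Ntrk2, and Mfap5 to Pmp22 (0.985), Pi15 and C1ra. Aspn was among the 3 nearest genes of both Fbln5 (0.975) and Efemp1 (0.977), beside Ackr3 and Emp1 for Fbln5 and Sppl2a and Laptm4a for Efemp1. The nearest genes of Mfap4 were Angpt4 (0.971), Lsamp and Mgp, and those of Eln were Nbl1 (0.948), Fcgrt and Cpxm1, the lowest r among the members' nearest genes.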

How the data were processed

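RNA of flow-sorted cells was amplified (Ovation RNA-seq System V2) and sequenced on a HiSeq4000 by the authors, who aligned the reads with TopHat2 in Partek software to mm10, per the submitters' processing notes and the study's methods, and deposited RPKM for 12698 RefSeq transcripts with 2 decimals. RPKM depends on the length given to each transcript and on the few most abundant transcripts of a library. How reads were counted per transcript, and the filter behind the list, are not given in the sources used here. Columns were matched to samples by the library name in the labels, with 0 value columns unmatched. No libraries held identical values.

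RPKM was summed per symbol. Genes with at least 1 RPKM in at least 3 of the 6 libraries compared were fitted on log2(RPKM + 1) with limma 3.58.1 in R 4.3.3 (lmFit, eBayes with a trend, two-sided), with a Benjamini-Hochberg threshold of 0.05, after a test on simulated data. The remaining steps ran in Python 3.11.15 (pandas 2.3.3, numpy 2.4.6, matplotlib 3.10.9). The 9 genes are named whatever their values; of the related lists, genes past the threshold are named, up to the 4 with the largest absolute log2 fold change per list and comparison. Members, lists and alternatives were chosen with earlier results of these data known. The alternatives were 2 other normalizations, a pseudocount of 0.1, no filter or a minimum of 5 RPKM, all 15 libraries in 1 fit, the sequencing lane as a covariate, the replicate number as a block, the most abundant transcript, and each library left out in turn. Leave-one-out fits kept the genes of the full fit, and a group of 2 libraries shared the pooled spread. The libraries fell into lane 1 (8) and lane 2 (7). Loci and sequences are from RefSeq (GRCm38.p6) and GENCODE vM21 (GRCm38), the build of the files; all 9 symbols matched.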

Additional observations from a re-analysis of the deposited data

How the results depend on the processing

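Of the 540 values of member fold changes under the alternatives, 481 kept direction and side of the threshold, 36 lost and 11 gained a call, and 12 changed sign, none of them a called value. Over fits without single libraries, the sign changed in Il33+ against Il33- WAT-MSC for Ltbp4 (-0.20 to 0.36, and -0.16 with quantile normalization) and Fbln2 (-0.22 to 0.055, above 0 without Il33- replicate 3). Against lung MSC it changed for Fbln1 (-0.49 to 0.15, above 0 without Il33+ WAT-MSC replicate 2) and Mfap5 (-0.27 to 0.12, above 0 without lung replicate 3, and 0.031 with the lane as covariate). Against endothelial cells it changed for Eln (-0.55 to 0.077, above 0 without Il33+ WAT-MSC replicate 2 or endothelial replicate 3), Mfap4 (-0.041 to 1.00, below 0 without endothelial replicate 2) and Ltbp4 (-0.13 to 0.76, below 0 without endothelial replicate 1). Counts of called genes ran from 55 to 122 without single libraries in the reporter comparison (133 in full), lowest without Il33- replicate 3, and 45 with no filter. They were 261 to 502 for WAT against lung MSC (513), lowest without lung replicate 2, and 336 with all libraries in 1 fit. They were 131 to 447 against endothelial cells (338) and 805 with all libraries in 1 fit. The cause was not tested.

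Correlations of the deviations of same-numbered libraries were -0.067 to 0.075 for replicates 1 and 2 and 0.057 to 0.155 for replicate 3, positive for replicate 3 in all 4 comparisons. Not every pair exceeded 0.1 in any comparison, so numbers were not taken as pairs in the main fits. In the reporter comparison the 3 values were 0.044, 0.061 and 0.106. These correlations cannot settle whether same-numbered libraries were sorted together. The replicate block called 232, 454, 335 and 4186 genes in the 4 comparisons, against 133, 513, 338 and 4019; Mfap4 joined Fbln1 in the first (limma adjusted p = 0.00692) and Fbn1 lost its call against endothelial cells (0.0568).

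With the most abundant transcript in place of the sum, the share of Fbln2 was 6.27%, 9.99% and 2.04% in Il33+, Il33- and lung MSC, and in Il33- WAT-MSC Fbln5 took 2.35%, Mfap4 8.92% and Mfap5 10.8%. Against the Il33- WAT-MSC mean, the endothelial level of Fbn1 was 58.4%, Fbln1 152%, Fbln5 114%, Efemp1 78.4%, Mfap4 197% and Mfap5 67.1%; under median-ratio scaling Efemp1 was 59.1%.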

Other observations

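Replicate 3 was the highest library in all 5 populations for Eln and Mfap4. Of 9981 genes, 277 (2.78%) had their highest value in replicate 3 of every population, against 11 (0.110%) for replicate 1 and 49 (0.491%) for replicate 2. In lung Il33+ MSC, Eln was 248.1 RPKM in replicate 3 and 103.1 and 106.6 RPKM in the others. Replicate 3 was sequenced in lane 2 in every population, as was replicate 2 of the lung populations; the part of the lane was not tested for these levels across populations.

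The members differed in how tightly replicates of a population held together. In lung Il33+ MSC the coefficient of variation over 3 libraries was 1.61% for Fbln2 and 1.91% for Fbn1, and 54.2% for Eln. In Il33+ WAT-MSC it was 5.78% for Fbln5, 6.17% for Mfap5 and 8.23% for Fbn1, but 42.0% for Fbln1, 41.4% for Eln and 40.2% for Mfap4.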
